A study of Homo sapiens with 6 samples.

Results

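Interferon-stimulated genes were examined across 6 libraries of polyadenylated RNA from Tet-FLAG-FOXM1c-hTERT-RPE1, a telomerase-immortalised human epithelial line derived from retinal pigment epithelium, in which doxycycline induces a FLAG-tagged FOXM1c transgene. In 3 dox libraries, with the genotype label FOXM1 overexpression, cells had received 1 µg/mL doxycycline at intervals of 24 h over 48 h. The other 3 libraries, no dox, had the treatment label none and the genotype label WT, with the same line name, so whether those cells carry the transgene rests on that name. Of 48 listed genes of interferon signalling and induction, the 37 with a row in the authors' comparison table of 13008 genes were taken as members. All 37 passed the filter on low values. Doxycycline given to cells without the transgene was not analysed here, so the effect of the drug and that of FOXM1 cannot be told apart, and the labels do not say that libraries came from separate cultures.

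Interferons are secreted proteins that signal through cell surface receptors and JAK kinases. Type I and type III interferons activate a complex that includes STAT2 and IRF9 and binds a promoter element called ISRE, while interferon gamma acts through a GAS element. The induced genes encode sensors and destroyers of viral RNA, ubiquitin-like modifiers and the proteins that load and present peptides on MHC class I, and many cells keep some of them at a low level without interferon.

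Promoter stretches of members are shown because an interferon element is what most of these genes share and what their selection from the table did not use. The sequences are from RefSeq on GRCh38.p14, whereas the authors' files use hg19. Each covers 180 bases that end just before the gene start, on the gene's strand. OAS3 lies at chr12:112938294-112938473 (plus strand), HERC5 at chr4:88456939-88457118 (plus), HERC6 at chr4:88378672-88378851 (plus), ISG15 at chr1:1013317-1013496 (plus), IFIT1 at chr10:89392443-89392622 (plus), PARP12 at chr7:140062952-140063131 (minus) and IRF1 at chr5:132490774-132490953 (minus). Capitals mark a core of ISRE, GAAA followed after any 2 bases by GAAA, or its reverse complement, TTTC followed after any 2 bases by TTTC, and in IRF1 the GAS core TTCNNNGAA, which is its own reverse complement. Matches were allowed to overlap.
OAS3: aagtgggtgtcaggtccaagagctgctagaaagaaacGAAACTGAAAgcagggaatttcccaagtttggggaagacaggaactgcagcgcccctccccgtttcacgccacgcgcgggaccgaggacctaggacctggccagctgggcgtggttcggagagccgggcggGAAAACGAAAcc
HERC5: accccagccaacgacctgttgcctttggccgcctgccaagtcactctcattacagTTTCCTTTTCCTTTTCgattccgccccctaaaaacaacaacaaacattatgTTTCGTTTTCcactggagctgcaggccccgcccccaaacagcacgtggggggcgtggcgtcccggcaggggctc
HERC6: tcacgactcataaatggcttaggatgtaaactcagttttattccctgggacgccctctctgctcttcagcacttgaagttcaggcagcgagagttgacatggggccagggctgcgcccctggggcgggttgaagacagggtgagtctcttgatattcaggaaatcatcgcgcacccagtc
ISG15: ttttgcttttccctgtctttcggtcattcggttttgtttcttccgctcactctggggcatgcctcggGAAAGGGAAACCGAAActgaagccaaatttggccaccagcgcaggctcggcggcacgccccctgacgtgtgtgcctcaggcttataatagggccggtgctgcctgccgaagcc
IFIT1: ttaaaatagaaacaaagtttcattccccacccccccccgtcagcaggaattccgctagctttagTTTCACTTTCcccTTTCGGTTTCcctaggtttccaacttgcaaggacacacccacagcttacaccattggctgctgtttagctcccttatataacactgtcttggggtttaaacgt
PARP12: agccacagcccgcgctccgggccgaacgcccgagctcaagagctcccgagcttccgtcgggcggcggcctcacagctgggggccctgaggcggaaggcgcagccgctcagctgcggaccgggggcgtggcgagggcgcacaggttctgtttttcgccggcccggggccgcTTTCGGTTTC
IRF1: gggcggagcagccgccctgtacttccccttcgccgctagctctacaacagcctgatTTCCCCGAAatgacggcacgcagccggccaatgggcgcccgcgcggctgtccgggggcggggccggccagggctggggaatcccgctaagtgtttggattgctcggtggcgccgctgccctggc
OAS3 and HERC5, the members with the largest fall and the largest rise below, both held ISRE cores, at -143 and -12 in OAS3 and at -125, -119 and -74 in HERC5, counted to the start of the match from the gene start. HERC6, the neighbour of HERC5, held none in this stretch. ISG15 and IFIT1 held 2 each, PARP12 held 1 at -10, and IRF1 held a GAS core at -124.

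Promoter windows of 300 bases, 250 before and 50 after each start, were found for 34 of the 37 members, and for 7 of the 48 listed genes (IRF7, IFIT2, OAS2, OASL, MX2, USP18 and PARP10) there was no entry. An ISRE core lay in at least 1 window of 22 members (64.7%), against 4.38% of all 27305 genes of the RefSeq table and 3.57% of its 35116 windows. The GAS core lay in windows of 7 members (20.6%), against 9.38% of all genes and 7.66% of windows. The forkhead core TAAACA (or TGTTTA), the kind of element that forkhead factors bind, lay in 3 members (8.82%), namely IFIT1, NMI and B2M, against 14.7% of all genes and 12.3% of windows. The cell cycle element CHR (TTTGAA or TTCAAA) lay in 2 (5.88%), IFIT3 and IFI44, against 18.2% of all genes and 15.2% of windows. A match is a string of letters and was not tested as a binding site.

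The interferon genes covered a wide range of levels without doxycycline. In no dox libraries 4 members averaged over 10 FPKM (reads scaled to gene width and to library total), 24 lay from 1 to 10 and 9 lay under 1, with a median of 2.37 FPKM. The highest was B2M, the invariant light chain of MHC class I, with 71.7 ± 2.81 FPKM (SD) in dox and 64.7 ± 6.16 FPKM in no dox (n = 3 each). HLA-C and HLA-B, MHC class I heavy chains, came next with 47.8 ± 1.43 and 26.2 ± 1.36 FPKM in dox. They had 45.4 ± 1.74 and 23.0 ± 1.67 FPKM in no dox libraries, and their reads may be split with genes of similar sequence. ISG15, the ubiquitin-like modifier, had 13.0 ± 2.42 FPKM with dox and 12.3 ± 2.13 FPKM without. Each of these 4 differed from its neighbours in the order by more than the sum of both SDs in no dox libraries. The order between genes also depends on the deposited gene width, so it is not an order of transcript numbers. For HLA-C that width was 11258 bases, although the gene runs only from 31236526 to 31239907. The widths of B2M (9626) and HLA-B (6894) also exceeded the stretch their genes cover, while ISG15 had 711. Below them ADAR, SAMHD1, TRIM25, EIF2AK2, IFIT5 and IFI6 lay between 5.73 and 8.61 FPKM in no dox libraries, and from TRIM25 to IFI6 neighbours in the order differed by less than their SDs. PARP10 was the lowest member by FPKM in no dox libraries (0.222 in dox, 0.225 in no dox). IFI44L (0.270 in dox, 0.273 in no dox) and HERC5 (0.565 in dox, 0.303 in no dox) came next. IFI44 (0.278 in dox, 0.358 in no dox) lay below HERC5 in dox. The deposited width of PARP10 was 27384 bases. By normalised counts USP18 was the lowest member, averaging 30.9 in dox and 34.0 in no dox libraries, against 175 and 181 for PARP10.

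Several genes that define a strong interferon response were near 0. The 9 genes outside the normalised table were the transcription factors IRF7 and IRF9, the RNA-activated synthetases OAS1 and OAS2 and their relative OASL, the antiviral GTPases MX1 and MX2, IFI27 and the nucleotide kinase CMPK2. None exceeded 0.0786 FPKM in any library, and CMPK2 was listed at 0 in all 6. IRF9 had 0.0456 ± 0.0313 FPKM in dox and 0.0405 ± 0.0241 FPKM in no dox libraries. That value is uncertain, since 48.4% of the exon bases of IRF9 in GENCODE 29 also lie in a second gene on the same strand, and the sources used here do not say how such reads were counted. Of the other 2 listed genes outside the comparison table, the exonuclease ISG20 had 7.11, 21.1 and 15.5 normalised counts in dox libraries 1 to 3, against 15.0, 33.1 and 26.3 in no dox, and the tetherin gene BST2 had 18.6, 25.1 and 34.3 in dox, against 13.1, 18.3 and 24.8 in no dox. Neither passed limma on normalised counts, ISG20 at a log2 change of -0.78 (adjusted p = 0.577, and 0.0624 with the replicate block) and BST2 at 0.45 (adjusted p = 0.691, and 0.208 with the block). From FPKM values with the block BST2 did pass (a change of 0.38, adjusted p = 0.0227). Their groups overlapped.

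**Figure D1:**
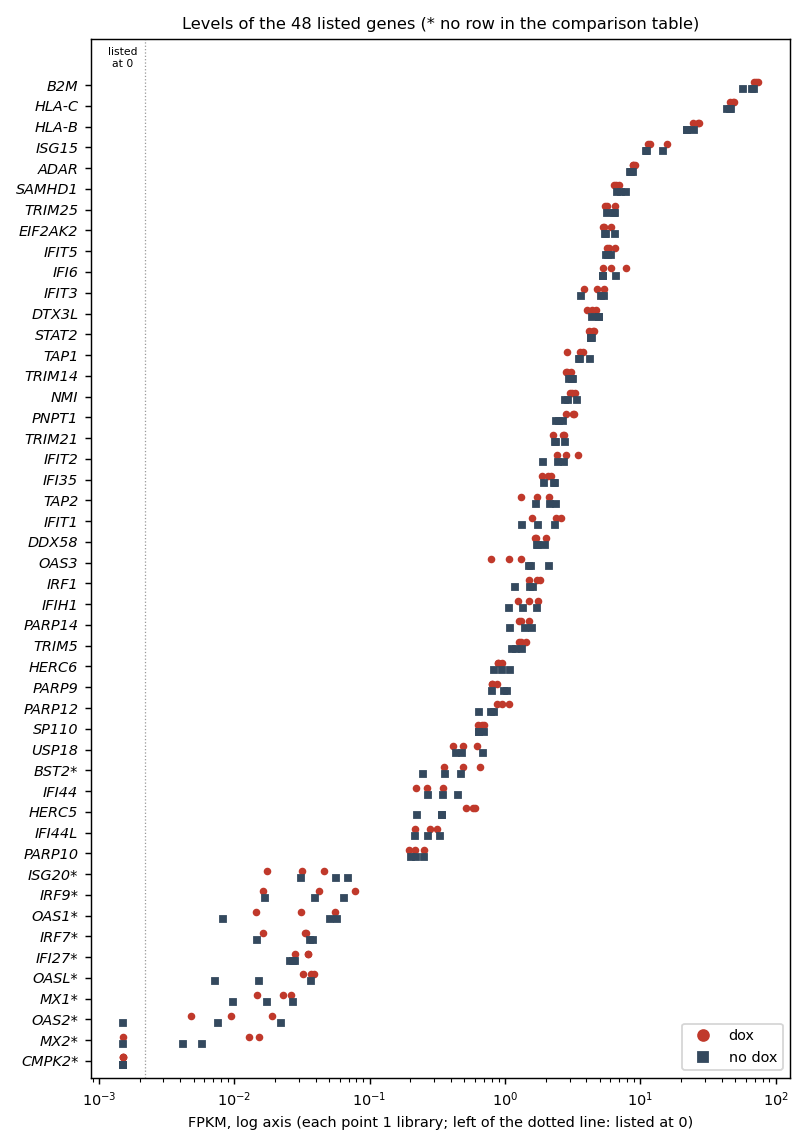
Levels of the 48 listed genes in FPKM on a log axis, 1 point a library, dox as red circles above no dox as dark squares, with genes marked by an asterisk having no row in the comparison table and points left of the dotted line listed at 0. B2M, HLA-C, HLA-B and ISG15 lie over 10 FPKM, and the 9 genes outside the normalised table lie under 0.0786 FPKM in every library.

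The comparison of dox with no dox libraries asked which members changed when FOXM1 was induced. FOXM1 itself averaged 69032 ± 5205 normalised counts (SD) in dox and 4562 ± 390.2 in no dox (n = 3 each), which is 3.92 on the log2 scale (limma adjusted p = 4.49e-06). Library totals, worked out from the steps between CPM values, were 15094498 to 49882123 reads, and on that scale between 14 and 34510 reads per library stood behind the value of a member. Normalised counts are the authors' depth-equalised values, and changes are given on the log2(normalised count + 1) scale as dox minus no dox, tested with limma over all 13153 genes and called at an adjusted p under 0.05. Libraries with the same replicate number deviated together, so results with that number as a block are given where they differ. Bulk RNA cannot tell fewer expressing cells from less RNA per cell. Of 9 leukocyte markers, 8 stayed under 0.1 FPKM in every library, and the summed level of the 9 was 0.418 to 0.601 FPKM in dox and 0.469 to 0.657 FPKM in no dox libraries. Among markers of retinal pigment epithelium RPE65, RLBP1, TYR, BEST1, PMEL and TTR averaged at most 0.114 FPKM in either group. OTX2 averaged 2.64 FPKM in dox and 2.73 FPKM in no dox libraries, and MITF 2.115 and 2.133 FPKM. The summed level of 6 epithelial and line markers was 391 to 519.7 FPKM in dox and 387 to 509 FPKM in no dox libraries. That sum mainly follows VIM, which averaged 311 FPKM in dox and 337 FPKM in no dox libraries.

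Changes of the interferon-stimulated genes ran in both directions and were centred near 0. Without the block 0 of 37 members passed limma, against 0.540% of all tested genes, and 4 had an unadjusted p under 0.05 (HERC5, OAS3, PARP12 and PNPT1), against 13.0% of all genes. With the replicate block 5 rose and 3 fell, or 21.6% of the members, against 22.5% of all genes (10.2% higher and 12.4% lower), so the members' share was close to the background. The median log2 change of the members was -0.0011 and that of all genes -0.0022. The median size of the change, whatever its sign, was 0.117 among members and 0.118 among all genes. Changes were above 0 for 18 members and below 0 for 19, and 28 had a size under 0.2. The libraries of the groups did not overlap for 7 members (18.9%), against 19.1% of all genes. The 95% interval of the change without the block lay within 0.5 of 0 on the log2 scale for 27 of 37 members, against 60.4% of all genes, and with the block for 32, against 77.5%.

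**Figure D2:**
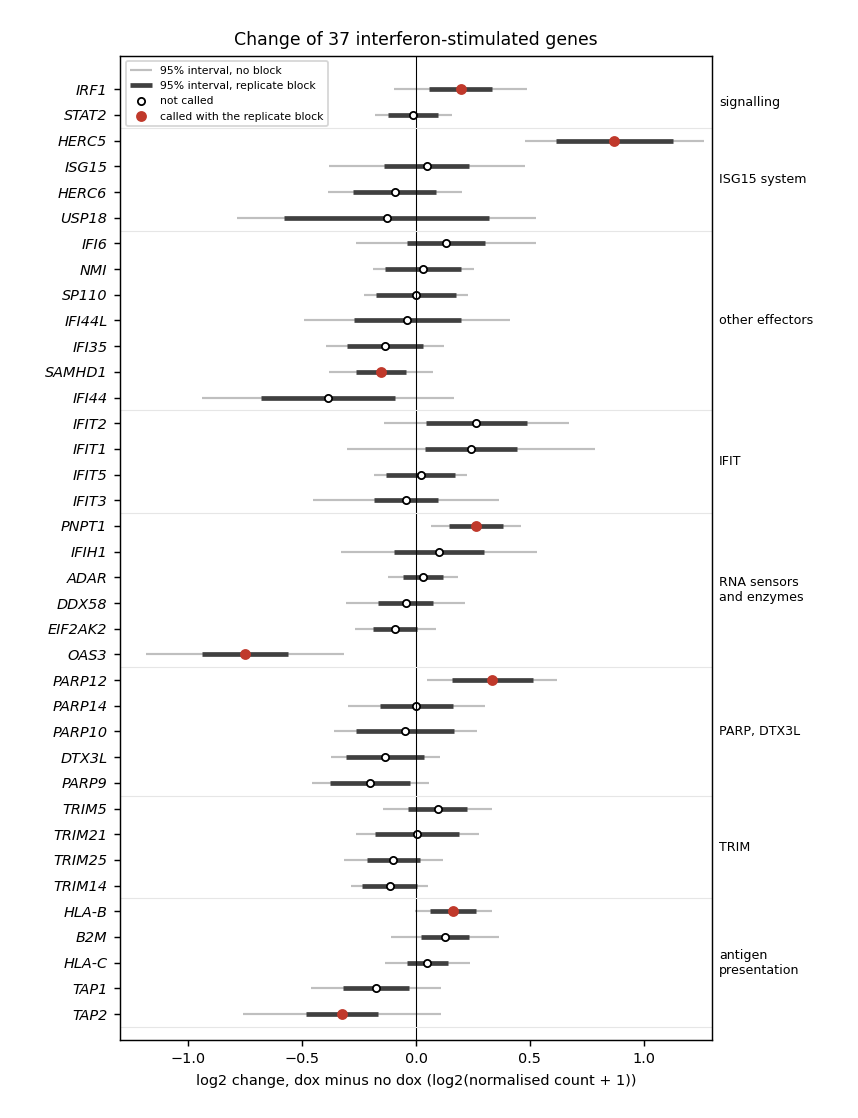
Log2 change of each of the 37 members, dox minus no dox, with 95% limma intervals without the block (thin grey) and with it (thick dark), by role, red points being called with the block. Of the 37, 8 are red, and HERC5 at 0.87 and OAS3 at -0.75 are the 2 with a size over 0.5.

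Of the factors that carry the interferon signal, STAT2 and IRF1 were members. STAT2, the subunit that gives the ISRE-binding complex its activation domain, had 2290.1, 2168 and 2115 normalised counts in dox libraries 1 to 3, against 2226, 2109 and 2295 in no dox. The 2 groups overlapped, with a log2 change of -0.013 and a 95% interval from -0.18 to 0.16 (limma adjusted p = 0.969). IRF1, a factor induced by interferon gamma that itself activates ISRE genes, had 714, 828 and 823 normalised counts in dox, against 577, 745 and 752 in no dox. Its dox value was higher within each replicate number although the groups overlapped. The change was 0.20 (SE 0.13), with a limma adjusted p of 0.604 in the fit without the block and 0.0465, just under the threshold, in the blocked fit. Leaving out any 1 of the 3 replicate numbers from that fit ended the call (0.0922 to 0.155).

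HERC5, the main ligase that attaches ISG15 to proteins in human cells, had the largest rise. It had 199, 182 and 169 normalised counts in dox libraries 1 to 3, against 113, 108 and 81.0 in no dox, or 184 ± 15.2 against 101 ± 17.3 (SD, n = 3 each). All 3 dox values exceeded all 3 no dox values. The log2 change was 0.87 (SE 0.17, 95% interval 0.48 to 1.26), with a limma adjusted p of 0.0761 without the block, which misses the threshold, and 0.000804 with it. Over 20 alternatives its adjusted p ran from 1.64e-05 to 0.220. The 7 that passed were all fits with the block, among them those without each replicate number.

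HERC6, a relative that lies beside HERC5 on chromosome 4 of hg19 (89299891 to 89364263, against 89378268 to 89427314 for HERC5, both on the plus strand), had 345, 329.7 and 375 normalised counts in dox, against 331, 359.7 and 435 in no dox. Its groups overlapped, and its change of -0.094 was not called (limma adjusted p = 0.846 unblocked, 0.446 blocked). The log2 ratio of HERC5 to HERC6 was higher by 0.964 in dox. An exact permutation test of that ratio (two-sided p = 0.1) could not decide, since 0.1 was its smallest possible p with 20 assignments of the libraries. The modifier ISG15 had 330.2, 225 and 247 normalised counts in dox, against 311, 226 and 236 in no dox, with a change of 0.047 and a 95% interval from -0.38 to 0.48. USP18, the protease that removes ISG15 and dampens the type I receptor, had 26.2 to 38.7 normalised counts across dox libraries and 28.7 to 43.6 across no dox libraries, with a change of -0.13 that rests on as few as 14 reads.

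OAS3, which makes the oligoadenylates that activate the ribonuclease RNase L, had the largest fall. Normalised counts of OAS3 reached 273, 433 and 375 in dox libraries 1 to 3, against 533, 715 and 555 in no dox, or 360.2 ± 80.8 against 601 ± 99.1 (SD, n = 3 each). All 3 dox values were under all 3 no dox values. The log2 change was -0.75 (SE 0.19, 95% interval -1.19 to -0.31), with a limma adjusted p of 0.131 without the block and 0.000372 with it. Over 20 alternatives its adjusted p ran from 1.14e-07 to 0.364. The 7 that passed were all fits with the block, among them those without each replicate number. OAS3 lies on chromosome 12 of hg19 (113376157 to 113411054, plus strand). The related OAS1 and OAS2 were near 0, at 0.0337 and 0.0111 FPKM in dox and 0.0390 and 0.00994 FPKM in no dox libraries.

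In the authors' deposited table OAS3 had a log2 fold change of -0.73 with an adjusted p of 0.0142, and HERC5 one of 0.86 with an adjusted p of 0.0123. They were the 2 members under 0.05 in the authors' deposited table, where 2.78% of 13008 genes were, and the other 35 members had adjusted p-values of 0.392 or more.

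Among the other RNA sensors and RNA-binding enzymes, PNPT1, the mitochondrial polynucleotide phosphorylase, had 1269.9, 1232 and 1143 normalised counts in dox, against 1089.6, 970.5 and 979 in no dox. The groups did not overlap, and the change of 0.26 (SE 0.08) passed with the block (limma adjusted p = 0.0071, against 0.234 without it), though not when replicate 2 was left out of both groups (0.0942). ADAR, the adenosine deaminase that edits double-stranded RNA, had 7573, 7401 and 7587 normalised counts in dox, against 7373, 7378 and 7338 in no dox. Its groups did not overlap either, but the change was 0.030 with a 95% interval from -0.13 to 0.19 (adjusted p = 0.911, and 0.620 with the block). The viral RNA helicases IFIH1 (MDA5) and DDX58 (RIG-I) lay at 0.10 and -0.046, and EIF2AK2, the kinase PKR, at -0.092, with no call in either fit.

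**Figure D3:**
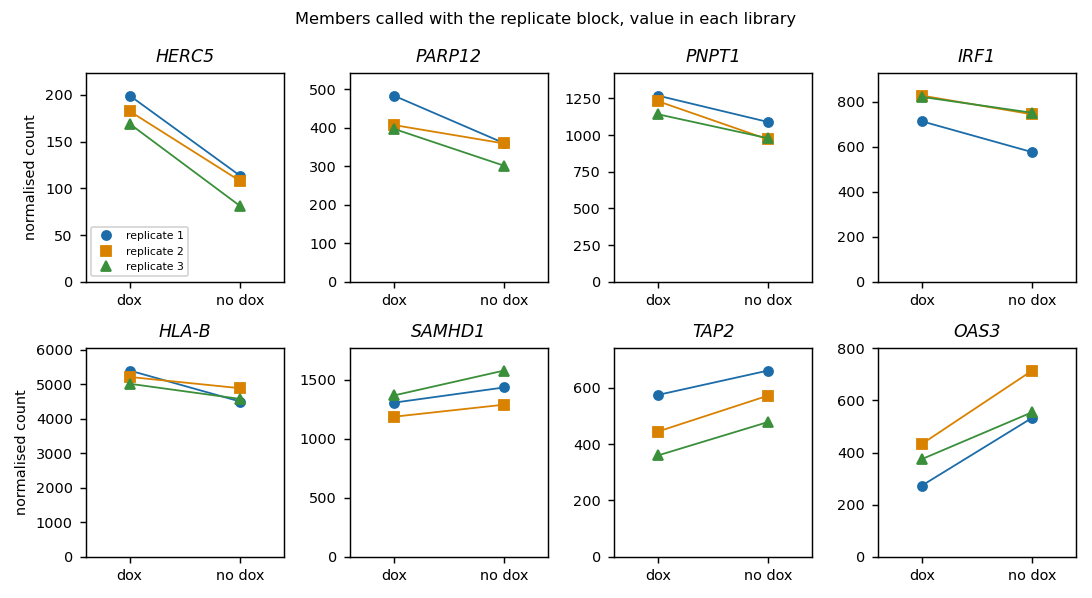
Normalised counts of the 8 members called with the replicate block, dox on the left and no dox on the right of each panel, with lines joining libraries of the same replicate number and axes from 0. The 3 lines run the same way in every panel, with HERC5 at 199, 182 and 169 in dox and at 113, 108 and 81.0 in no dox, while the groups overlap for IRF1, SAMHD1 and TAP2.

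PARP12, a mono-ADP-ribosyltransferase with zinc fingers that bind RNA, had 484, 408 and 398 normalised counts in dox, against 360.3, 359.6 and 302 in no dox. The groups did not overlap. Its change of 0.33 (SE 0.12) passed with the block (limma adjusted p = 0.0146, against 0.306 without it) and not when replicate 3 was left out of both groups (0.0743). The other members of that class were not called in either fit. DTX3L, a ubiquitin ligase that pairs with PARP9, had 904, 738 and 856 normalised counts in dox, against 847, 919.9 and 971 in no dox, a change of -0.14. PARP9 lay at -0.20, PARP10 at -0.047 and PARP14 at 0.00073. DTX3L and PARP9 lie head to head and share 3.7% and 2.4% of their exon bases on opposite strands in GENCODE 29.

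No IFIT or TRIM gene was called in either fit. IFIT proteins bind viral RNA ends, and their genes lie together on chromosome 10. IFIT5 had 1051, 899.6 and 917 normalised counts in dox, against 909.8, 956 and 955 in no dox, a change of 0.021 with a 95% interval from -0.18 to 0.22. IFIT1 and IFIT2 had changes of 0.24 and 0.26 and were higher in dox within all 3 replicate numbers, with limma adjusted p-values of 0.0830 and 0.0838 with the block, while IFIT3 lay at -0.043. The 95% intervals ran from -0.30 to 0.79 for IFIT1 and from -0.14 to 0.67 for IFIT2 without the block, and from 0.04 to 0.44 and from 0.04 to 0.49 with it. TRIM25, the ubiquitin ligase that promotes RIG-I signalling, had 2481, 2051 and 2107 normalised counts in dox, against 2461, 2395 and 2237 in no dox, a change of -0.10 with a 95% interval from -0.32 to 0.12. TRIM5 lay at 0.095, TRIM14 at -0.12 with groups that did not overlap, and TRIM21 at 0.0052.

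SAMHD1, which depletes deoxynucleotides and so limits viral DNA synthesis, had 1305, 1186 and 1366 normalised counts in dox, against 1434, 1288 and 1577 in no dox. Dox was lower within each replicate number while the groups overlapped. Its change of -0.15 (SE 0.10) passed narrowly with the block (limma adjusted p = 0.0480, against 0.606 without it), and that call was lost without replicate 2 (0.170) or 3 (0.253) of both groups. In the same class of effectors IFI44 lay at -0.39 (95% interval -0.94 to 0.17, limma adjusted p = 0.582, and 0.0598 with the block), and IFI35 at -0.14, IFI44L at -0.040, SP110 at -0.0011, NMI at 0.031 and IFI6 at 0.13, none called.

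The genes of MHC class I presentation went both ways. HLA-B had 5392, 5206 and 5008 normalised counts in dox, against 4494, 4879 and 4570.1 in no dox, with no overlap of the groups. Its change of 0.16 (SE 0.07) passed with the block (limma adjusted p = 0.0300, against 0.403 without it), though not without replicate 2 (0.0814) or 3 (0.0949) of both groups. B2M had 19358, 19192 and 21096 normalised counts in dox, against 16439, 18348 and 20003 in no dox, a change of 0.13 that was not called (adjusted p = 0.700, and 0.0869 with the block), and HLA-C lay at 0.049. TAP2, a subunit of the transporter that carries peptides into the endoplasmic reticulum, had 575, 445 and 359.6 normalised counts in dox, against 661, 572 and 479 in no dox. Each dox library lay below its no dox partner while the groups overlapped. The change of -0.33 (SE 0.19) passed with the block (limma adjusted p = 0.00944, against 0.543 without it) and was lost without replicate 2 (0.0771) or 3 (0.0578) of both groups. TAP2 shares 32.3% of its exon bases in GENCODE 29 with another gene on the same strand. Among the other called members IRF1 shares 22.0%, HLA-B 18.9% and SAMHD1 10.3%, mostly or wholly with genes on the other strand, so these values are uncertain if counting did not use the strand. TAP1, the partner subunit, lay at -0.18 and was not called (adjusted p = 0.638, and 0.0770 with the block).

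Members also differed between replicate numbers, a pattern described after the values were seen. Replicate 1 was the lowest library in both groups for 13 members, against 26.0% of all genes, among them IFIT1, IFIT2, IFIT3, IFI44, IFI44L, IFIH1, OAS3 and IRF1. IFIT1 had 214, 336 and 326 normalised counts in dox libraries 1 to 3, against 185, 309.9 and 246 in no dox. Replicate 1 was the highest in both groups for 11 members, against 27.2% of all genes, among them ISG15, IFI6, USP18, TAP1 and TAP2. IFI6, an endoplasmic reticulum protein, had 578, 419 and 393 normalised counts in dox, against 488, 373 and 397 in no dox. Replicate 2 was the lowest in both groups for 3 members (20.2% of all genes) and the highest for 8 (20.4%), and replicate 3 the lowest for 4 (16.9%) and the highest for 6 (17.7%). These counts are descriptions, with no test against the shares over all genes. Within the pairs, 24 of 37 members were higher in dox in replicate 1 (median difference 0.043), 13 in replicate 2 (-0.054) and 17 in replicate 3 (-0.035), 11 were higher in all 3 and 11 lower in all 3. What equal numbers share is not stated in the labels, and its part in these values was not tested.

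**Figure D4:**
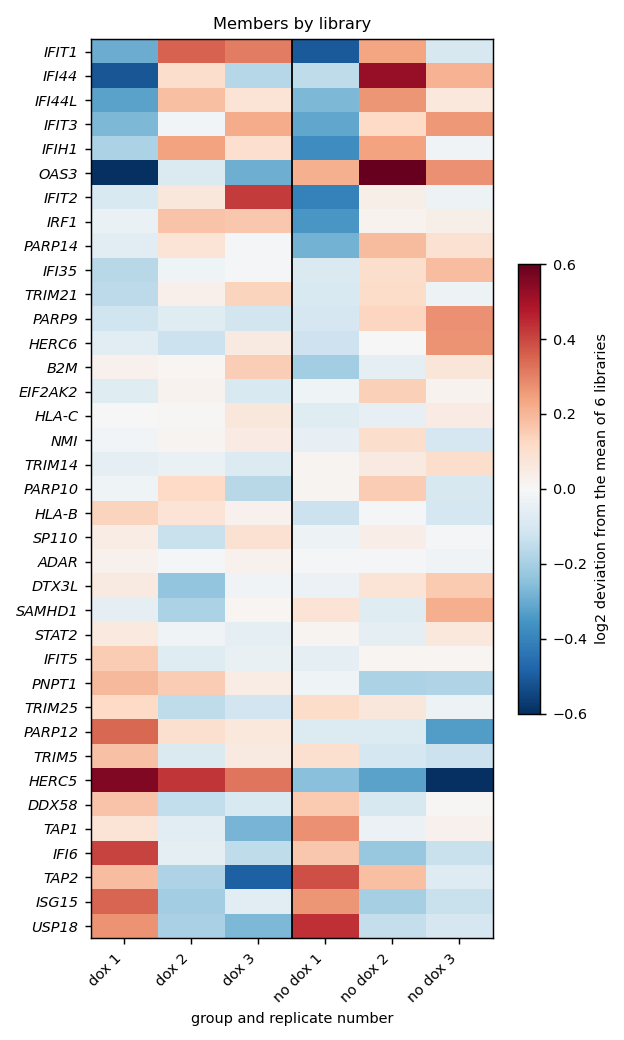
Log2 deviation of each of the 37 members from its mean over the 6 libraries, dox libraries on the left and no dox on the right of the line, genes ordered by their mean deviation in replicate 1 and colours saturating at the ends of the bar. IFIT1, at the top, is low in replicate 1 of both groups (214 in dox and 185 in no dox), ISG15 and USP18, at the bottom, are high there, and HERC5 and OAS3 split by group.

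Members with and without an ISRE core had similar medians. The median log2 change was 0.0030 over the 22 members with a core and -0.0068 over the 12 without, and each set held 4 of the 8 members called with the block. These are descriptions with no test.

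Genes that act before and beside the members were read from lists of the interferon pathway. No gene of these 5 lists passed limma without the block. Counts called with the block stand beside 10.2% of all genes higher and 12.4% lower in that fit, and are given as descriptions of the lists. Of 9 interferon ligand genes, 7 were listed at 0 in all 6 libraries (IFNB1, IFNA2, IFNG, IFNK, IFNL1, IFNL2 and IFNL3), IFNA1 had at most 1.06 FPKM, and IFNE averaged 1.03 FPKM in dox and 1.43 FPKM in no dox libraries. Among 7 tested ligands and receptors none rose and 2 fell with the block. IFNLR1, the specific chain of the type III interferon receptor, had 7.92, 14.3 and 16.0 normalised counts in dox, against 36.0, 64.5 and 30.7 in no dox. Its groups did not overlap, and the change of -1.68 passed with the block (limma adjusted p = 0.00358, against 0.113 without it) at a level of at most 0.244 FPKM in any library. IFNGR2, a chain of the interferon gamma receptor, fell by 0.17 with the block (adjusted p = 0.0402), and the type I receptor chain IFNAR1 lay at 0.018.

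Of 18 tested JAK-STAT transducers and regulators, 2 fell with the block. STAT3 lay at -0.20 (limma adjusted p = 0.00771) and STAT6 at -0.14 (0.0380), both transcription factors of cytokine signalling. SOCS1, a feedback inhibitor of JAK kinases, lay at 0.47 and did not pass (adjusted p = 0.487, and 0.138 with the block). Of 20 tested sensing genes and adaptors, 2 rose with the block, TLR3 (0.47, adjusted p = 0.0150), an endosomal receptor for double-stranded RNA, and MAVS (0.15, 0.0376), the mitochondrial adaptor of RIG-I and MDA5. In that list 2 fell with the block, the ribonuclease H2 subunit RNASEH2A (-0.42, 0.00481) and the DNA exonuclease TREX1 (-0.42, 0.0107).

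Of 17 further genes of MHC class I presentation, 3 fell with the block, the chaperone genes PDIA3 (-0.21, limma adjusted p = 0.0134) and CALR (-0.17, 0.0190) and the peptide-trimming ERAP1 (-0.18, 0.0162). HLA-F, a non-classical class I gene, rose by 0.70 with the block (0.010). HLA class I genes are similar in sequence, so reads may have been split among them. Of 41 other interferon-induced genes, 3 rose and 4 fell with the block, smaller shares than the 10.2% and 12.4% of all genes. TRIM22 rose by 0.66 (adjusted p = 6.60e-05), LY6E by 0.39 (0.00511) and LGALS3BP, chosen after its values were seen, by 0.17 (0.0477), while GBP3 (-0.41, 0.00162), SP100 (-0.25, 0.0077), ZC3HAV1 (-0.20, 0.0216) and CD274 (-0.35, 0.00558) fell. TRIM22 had 2563, 1517 and 1740.4 normalised counts in dox, against 1721, 925 and 1085 in no dox, so each dox library exceeded its partner while the groups overlapped. The 5 list medians lay between -0.043 and 0.018.

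**Figure D5:**
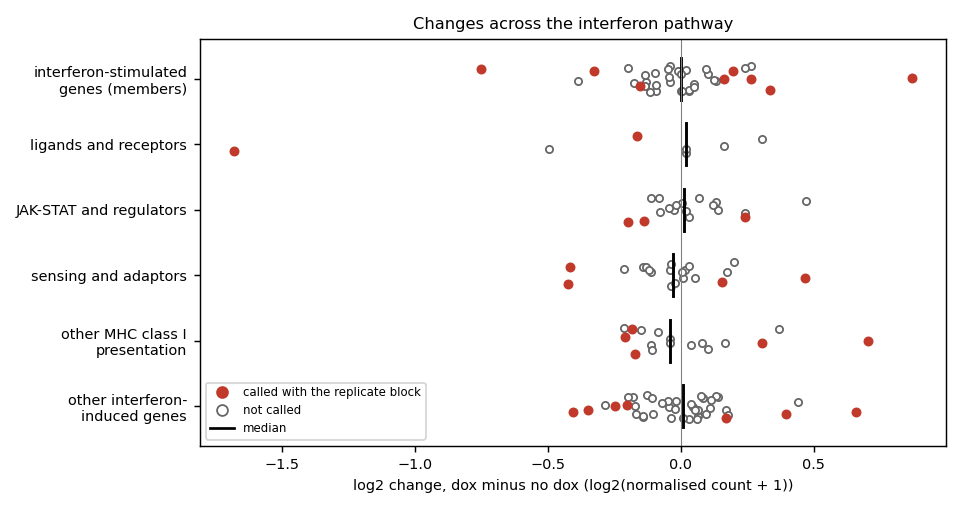
Log2 change, dox minus no dox, of the members and of tested genes in 5 other lists of the interferon pathway, 1 point a gene, red where called with the replicate block, with the median of each list as a black bar. All medians lie between -0.043 and 0.018, and IFNLR1 at -1.68 is the point farthest from 0.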

How the data were processed

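Sample titles gave the groups and replicate numbers. The members and gene lists were chosen with earlier results of these data known. Per the labels' protocols, RNA was column-purified and poly(A)-selected. The build hg19 and the tools bcl2fastq, Trimmomatic, TopHat and edgeR appear, with no role or version, in the submitters' processing notes. The sources used here do not say whether strand was used in counting or how reads of several genes were treated. The authors deposited a normalised signal (normalised counts, equalised for depth by a formula that no source used here states) for 13161 genes. The deposited FPKM values of 57773 genes match the deposited CPM per kilobase of gene width to within a relative difference of 1.5e-07. The authors' comparison table holds CPM, a log2 fold change, a likelihood ratio score, p-values and adjusted p-values for 13008 genes, per the file headers. In each library all CPM values of the 13008 genes were whole multiples of 1 step (tolerance 0.01). That step was taken as 1 read, which gave the library totals, but 3 libraries had only 13, 43 and 73 low values to check it, so their totals are less certain.

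Genes were tested two-sided with limma-trend after a log2(normalised count + 1) transform. The 13153 genes reaching 10 normalised counts in 3 or more libraries were kept, 8 were removed, and p-values were Benjamini-Hochberg adjusted over those kept. The pseudocount understates changes of low genes. The fits were tested on simulated data. Same-numbered libraries' deviations from their group means correlated at 0.745, 0.726 and 0.768 over all tested genes, so the numbers were taken to pair the libraries, and the replicate number was a block in the second fit, with 2 residual degrees of freedom. Every member is named. Some items of the other lists were left out of the text. Values in each library are given for members called in either fit and for the member with the highest FPKM in each role, and in each other list the 2 genes with the smallest p and up to 4 more called with the block are named. Members beyond this rule were given in full after their values were seen. Alternatives were other pseudocounts, filters, scalings, FPKM values, the block and leaving out libraries, and combinations of the block with other values or scalings were added after seeing the data. Motifs were searched on both strands. Software was R 4.3.3, limma 3.58.1, Python 3.11.15, numpy 2.4.6, pandas 2.3.3 and matplotlib 3.10.9.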

Additional observations from a re-analysis of the deposited data

How the results depend on the processing

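Without the block, 0 members were called under every scaling, pseudocount, filter and left-out library tried, and from FPKM values. Over all genes 71 were called, 31 from FPKM values and 3 to 21 when 1 library was left out. With the replicate block 2965 genes, 5 members higher and 3 lower were called. Leaving out a replicate number of both groups from that fit, which leaves 1 residual degree of freedom, gave 1414, 1779 or 3835 genes, 2 to 4 members higher and 1 to 7 lower. With the block, FPKM values gave 2081 genes, 4 members higher and 2 lower, TMM scaling 2972, 5 and 2, and median-of-ratios scaling 2991, 5 and 2. HERC5 and OAS3 were called in each of the 7 blocked fits. SAMHD1 was not called with the block under TMM (limma adjusted p = 0.0580), median-of-ratios scaling (0.0533) or FPKM values (0.0926), and IRF1 not from FPKM values (0.0772). The members' median stayed between -0.039 and 0.043 over 20 alternatives. Of 37 members 22 kept the sign of their change under every one of these that tested them (19 for USP18), and the 15 that did not had a size of at most 0.13. Planned tests on whole reads were not run, because in 3 libraries fewer than 100 low CPM values were there to check the steps. Among the results, USP18 with 14 reads in 1 library is the member most limited by depth.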

Other observations

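Genes that respond to NF-kB, a factor induced beside interferon by many of the same sensors, were read from a list of 20, of which 16 were tested. None passed limma without the block, and the groups did not overlap for 5, against 19.1% of all genes. With the replicate block 1 rose and 5 fell, against 10.2% of all genes higher and 12.4% lower. BIRC3, an inhibitor of apoptosis, had 80.2, 53.0 and 51.5 normalised counts in dox libraries 1 to 3, against 131, 107 and 116 in no dox, with a log2 change of -0.95 (limma adjusted p = 0.00172 with the block, against 0.105 without it). The chemokine gene CCL2 had 403, 308 and 475 normalised counts in dox, against 590.4, 522 and 652 in no dox, with a change of -0.59 (adjusted p = 0.000756 with the block, against 0.181 without it). The chemokine gene IL8 (CXCL8) lay at -0.71 (adjusted p = 0.00443 with the block), NFKBIA, the inhibitor of NF-kB, at -0.30 (0.0107) and the superoxide dismutase gene SOD2 at -0.18 (0.0271). The cytokine gene LIF rose with the block, with 4947, 4409.6 and 4022 normalised counts in dox, against 3730.2, 3515 and 3435 in no dox, a change of 0.32 (adjusted p = 0.00131 with the block, against 0.184 without it).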
